A study of Arabidopsis thaliana with 12 samples.

Results

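Dirigent proteins are small secreted proteins of land plants. They have no oxidative activity of their own, and when a laccase or peroxidase turns monolignols into radicals, a dirigent protein steers how the radicals couple, so that 1 stereoisomer of a lignan is favoured. Some members act in the root endodermis, where lignin of the Casparian strip seals the space between cells. Arabidopsis thaliana carries a family of them, of which 9 genes are described here: AT4G11190, AT4G11210, AT1G55210, AT1G58170, AT1G64160, AT1G65870, AT2G21100, AT4G23690 and AT3G13650. They were taken by locus from a list drawn up with earlier results of these arrays known, so their appearance together is not a result. A gene was read from a probe set that the platform annotation gives to it alone, and where a gene had several the probe set was to be chosen by the highest mean over the 12 arrays; each gene here had at most 1. In all, 7 of the 9 were measured in this way, among 13286 loci with such a probe set. AT1G64160 (DIR5) and AT4G23690 (DIR6), known for directing the formation of (-)-pinoresinol, were not analysed here.

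The arrays came from 4 groups of 3. The groups were roots of dorn1-1 given ATP, dorn1-1 given buffer, the wild type (WT) given ATP and the WT given buffer. All seedlings were of the Col-0 ecotype and 5 days old, stood overnight in darkness in 2 mM MES and 10 mM CaCl2, and were harvested after 30 min of treatment, with 120 seedlings pooled in each replicate. The WT line expresses the calcium reporter aequorin, and dorn1-1 carries a chemically induced mutation in a lectin receptor kinase gene, which was not analysed here. The dose is not settled, because the sample titles give 100 mM ATP while the treatment protocol gives 100 µM. Each replicate is called biological in the labels, and p-values measure the spread between such pools. Values are log2 RMA values, on which 1 unit is a 2-fold difference, and levels of different probe sets cannot be set against each other. In a whole root, fewer cells of a type and less RNA per cell cannot be told apart.

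Tissue markers were read on every array, since the roots were cut from whole seedlings. Of 12 root cell type markers, 1 was measured, the root hair expansin EXPA7, which lay between 5.84 and 6.99 on the 12 arrays. Root markers could thus hardly check the root label here. All 3 shoot markers, the photosynthesis genes RCA, LHCB4.1 and PRK, were measured, and their mean per array lay between 9.09 and 11.98. The array medians over all probe sets were 6.07 to 6.17, so photosynthesis transcripts read high on every array labelled root. It was 10.63 to 11.27 in dorn1-1 given ATP, 9.09 to 11.89 in dorn1-1 given buffer, 11.08 to 11.98 in WT given ATP and 9.76 to 10.59 in WT given buffer. The difference between WT given ATP and WT given buffer was 1.34 (two-sided exact permutation p = 0.1, which is the lowest possible with 3 arrays in each group). Within dorn1-1 given buffer, replicate 1 was the highest at 11.89 and replicate 2 the lowest at 9.09. Shoot marker values, or fits with their mean as a covariate, stand beside many of the results below.

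The clearest genotype difference in the family was in ATP, at a pair of adjacent genes on chromosome 4. AT4G11190 and AT4G11210 were 2.95-fold and 3.49-fold higher in dorn1-1 than in the WT, and the other 5 measured genes did not pass. Of the 7 measured genes, 2 passed an adjusted p of 0.05 in limma, both higher in dorn1-1. Among all 22746 probe sets tested, 6.68% passed in this contrast and 4.68% passed as higher, so 1519 probe sets in all passed in either direction and the pair is a small part of them. The groups did not overlap for the same 2 of 7 genes, against 27% of all probe sets, and the same 2 had an unadjusted p under 0.05, against 21.7%. The median log2 difference of the 7 was 0.38, and that of all probe sets was 0.01.

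AT4G11190 had log2 values of 7.92, 8.50 and 8.26 in dorn1-1 given ATP, against 6.71, 6.60 and 6.70 in WT given ATP. All 3 mutant arrays lay above all 3 WT arrays, and the WT arrays were close together. The means were 8.23 ± 0.30 and 6.67 ± 0.06 (SD, n = 3 each), a log2 difference of 1.56 (SE 0.36, limma adjusted p = 0.0274). Its percentile by mean level among all probe sets was 72.2, well away from the dim end of the array.

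AT4G11210 had log2 values of 6.40, 6.68 and 5.78 in dorn1-1 given ATP, against 4.76, 4.25 and 4.43 in WT given ATP. Here too the groups were apart, by more than the range within either. The means were 6.29 ± 0.46 and 4.48 ± 0.26 (SD, n = 3 each), a log2 difference of 1.80 (SE 0.38, limma adjusted p = 0.0178). Its percentile by mean level was 43.6.

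**Figure D1:**
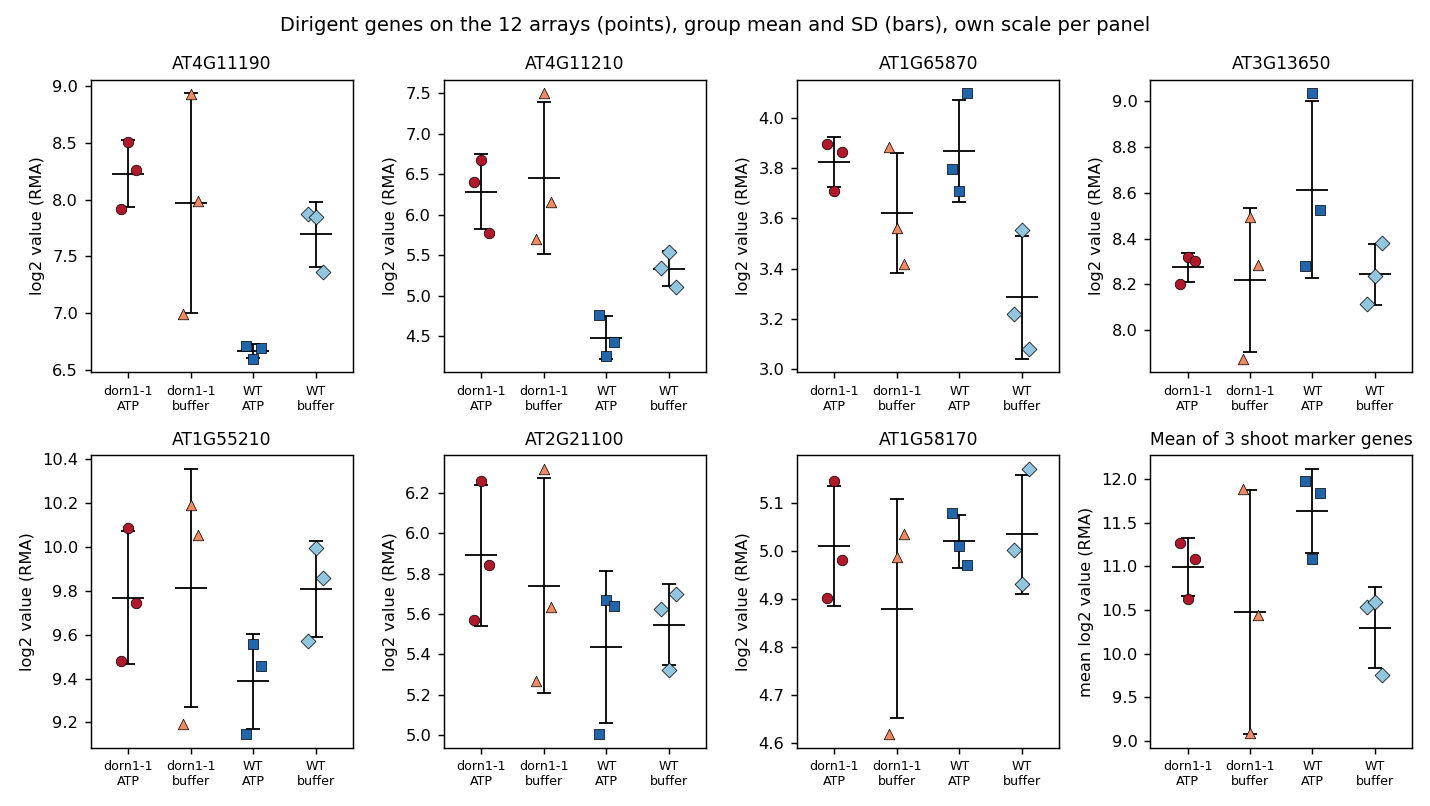
Log2 RMA values (y axis, own scale per panel) of the 7 measured dirigent genes and of the mean of 3 shoot marker genes in the 4 groups (x axis), with points for arrays and bars for the group mean and SD, n = 3. For AT4G11190 and AT4G11210 all dorn1-1 ATP arrays lie above all WT ATP arrays, and the dorn1-1 buffer arrays spread widely, as do their shoot markers.

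Both calls rest on few arrays. With 1 array of the compared groups left out, AT4G11190 kept a log2 difference of 1.42 to 1.71 and missed the threshold in 5 of 6 such fits, all but the fit without dorn1-1 ATP replicate 1 (highest adjusted p = 0.117, without dorn1-1 ATP replicate 2). AT4G11210 kept a difference of 1.61 to 2.06 and missed it in 4 of 6, those without WT ATP replicates 2 or 3 or dorn1-1 ATP replicates 1 or 2 (highest adjusted p = 0.0886, without dorn1-1 ATP replicate 2). In these fits 272 to 1262 probe sets passed in all, against 1519 with every array. The shoot marker mean was lower in dorn1-1 than in the WT given ATP by 0.64 (10.997 ± 0.333 and 11.638 ± 0.485, SD, n = 3 each; exact permutation p = 0.3). With that mean as a covariate the differences were 1.23 for AT4G11190 and 1.52 for AT4G11210, with limma adjusted p = 0.0119 and 0.0110.

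Among the other 5 members in ATP, none had groups that did not overlap. AT2G21100 had 5.57, 6.26 and 5.84 in dorn1-1, against 5.00, 5.67 and 5.64 in the WT, a log2 difference of 0.45 (95% interval -0.14 to 1.04). AT1G55210 had 9.48, 10.08 and 9.74 in dorn1-1, against 9.15, 9.56 and 9.46 in the WT, a difference of 0.38 (95% interval -0.16 to 0.92). AT3G13650 had 8.20, 8.32 and 8.30 in dorn1-1, against 8.28, 9.04 and 8.52 in the WT, a difference of -0.34 (95% interval -0.76 to 0.08). For these 3 genes the intervals allow changes of over 1.5-fold in the direction of the difference. With the shoot marker mean as a covariate the log2 differences were 0.19 for AT2G21100 and 0.15 for AT1G55210, and AT3G13650 passed in that fit with -0.51 (SE 0.14, limma adjusted p = 0.0417). AT1G65870 and AT1G58170 had intervals of -0.39 to 0.30 and -0.29 to 0.27 on the log2 scale, so a 2-fold difference in array value lies outside both. Both probe sets are dim, at percentiles 22.1 and 36.3 by mean level, where RMA compresses differences. The intervals therefore do not bound the difference in transcript level.

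**Figure D2:**
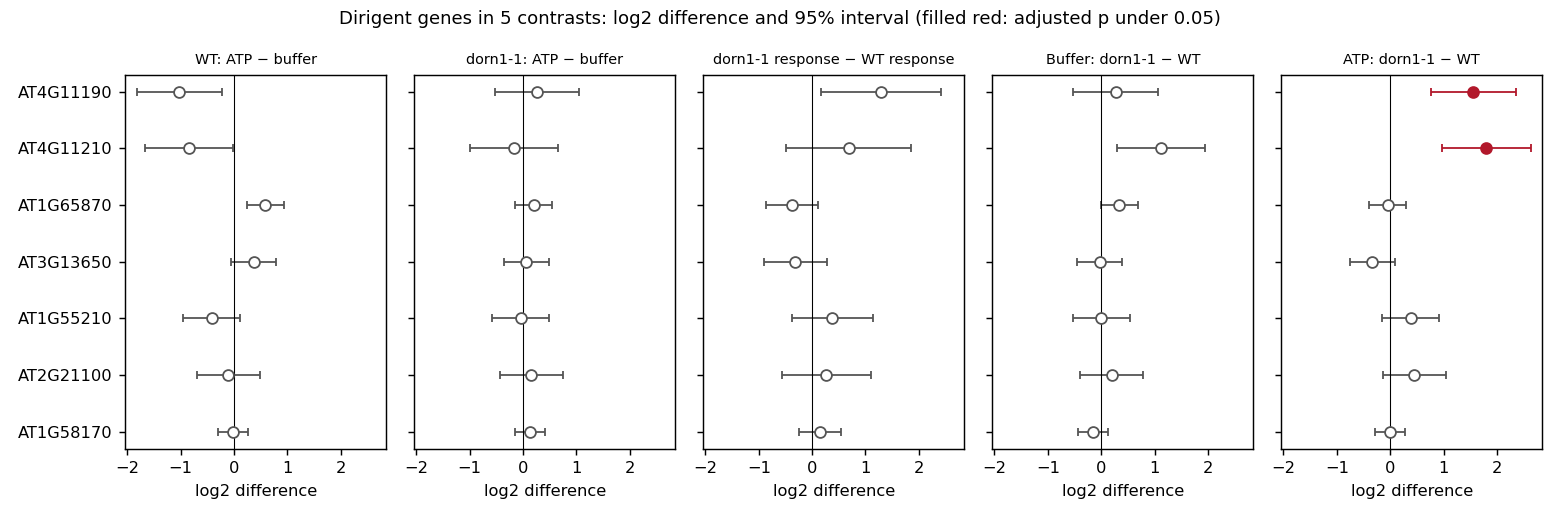
Log2 differences (x axis) of the 7 measured dirigent genes (y axis) in 5 contrasts, with 95% intervals from limma; filled red points have an adjusted p under 0.05. The filled points are AT4G11190 and AT4G11210 in the ATP panel on the right, at 1.56 and 1.80.

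The genotypes were also compared on the arrays of roots given buffer and no ATP. AT4G11210 had log2 values of 5.70, 7.50 and 6.15 in dorn1-1, against 5.34, 5.54 and 5.11 in the WT. The dorn1-1 arrays all lay above the WT arrays but were more widely spread than these. The means were 6.45 ± 0.94 and 5.33 ± 0.22 (SD, n = 3 each), a difference of 1.12 (SE 0.38, limma adjusted p = 0.269). Single arrays moved it: it was 0.59 without dorn1-1 buffer replicate 2 and 1.497 without dorn1-1 buffer replicate 1 (limma adjusted p = 0.504 and 0.0557). AT4G11190 had 6.99, 8.93 and 7.98 in dorn1-1, against 7.87, 7.85 and 7.36 in the WT, and the groups overlapped (difference 0.27, 95% interval -0.52 to 1.07). In dorn1-1 given buffer both genes were lowest in replicate 1, where the shoot markers were highest, and highest in replicate 2, where the shoot markers were lowest. No member passed in buffer by limma, where 0.0659% of all probe sets did. AT4G11210 was the 1 member of 7 with an unadjusted p under 0.05, against 12.9% of all probe sets. With the shoot marker mean as a covariate its difference was 1.20 (limma adjusted p = 0.0586).

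The next comparison asked what ATP did in WT roots. None of the 7 genes passed by limma, where 0.664% of all probe sets did. At an unadjusted p under 0.05 there were 3 of 7, AT4G11190 and AT4G11210 with lower and AT1G65870 with higher values in ATP, against 22.2% of all probe sets. The groups did not overlap for 4 of 7, against 33.1% of all. The median log2 change of the 7 was -0.11, and that of all probe sets was -0.03.

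AT4G11190 had 6.71, 6.60 and 6.70 in WT given ATP, against 7.87, 7.85 and 7.36 in WT given buffer, a log2 change of -1.03 (SE 0.36, limma adjusted p = 0.144). AT4G11210 had 4.76, 4.25 and 4.43 in ATP, against 5.34, 5.54 and 5.11 in buffer, a log2 change of -0.85 (SE 0.38, limma adjusted p = 0.214). For both, every ATP array lay below every buffer array. The ATP arrays here are the same 3 that enter the genotype comparison in ATP, so the 2 comparisons are not independent. The shoot markers moved the other way, and with their mean as a covariate the log2 changes were -0.34 for AT4G11190 and -0.25 for AT4G11210. The calls depended on the arrays used to estimate the spread: with only the 2 WT groups in the fit the adjusted p was 0.0123 for AT4G11190 and 0.0208 for AT4G11210, and without dorn1-1 buffer replicate 1 it was 0.0208 for AT4G11190.

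AT1G65870 was the measured dirigent gene with the lowest p in this contrast. It had 3.80, 3.71 and 4.098 in WT given ATP, against 3.22, 3.56 and 3.08 in WT given buffer, and the groups did not overlap. The log2 change was 0.58 (SE 0.16, limma adjusted p = 0.0904). Its adjusted p was 0.0487 with only the 2 WT groups in the fit and 0.0286 without dorn1-1 buffer replicate 1, and its log2 change was 0.37 with the shoot marker covariate. This probe set is dim, at percentile 22.1 by mean level, where RMA compresses differences.

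AT1G55210 had 9.15, 9.56 and 9.46 in WT given ATP, against 9.57, 10.00 and 9.86 in buffer, with no overlap and a log2 change of -0.42 (SE 0.25, limma adjusted p = 0.339). AT3G13650 had 8.28, 9.04 and 8.52 in ATP, against 8.11, 8.24 and 8.38 in buffer, a change of 0.37 with overlapping groups (95% interval -0.05 to 0.79). AT2G21100 and AT1G58170 had log2 changes of -0.11 and -0.01 with overlapping groups. The shoot marker mean was 1.34 higher in the same ATP arrays, and with it as a covariate the log2 changes were 0.06 for AT1G55210, 0.74 for AT3G13650, 0.44 for AT2G21100 and 0.17 for AT1G58170, so the sign turned for all but AT3G13650 (limma adjusted p = 0.093 for AT3G13650 and 0.502 or above for the others). The 95% interval of AT1G58170, from -0.29 to 0.26, is the narrowest of the 7 and holds no 2-fold change in array value. Its probe set is dim, at percentile 36.3 by mean level, where RMA compresses differences. The interval therefore does not bound the change in transcript level.

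In dorn1-1 the ATP and buffer arrays overlapped for all 7 genes. The share of all probe sets that overlapped was not computed for this contrast, so the count is not read as a result about the members. AT4G11190 averaged 8.23 ± 0.30 in ATP and 7.97 ± 0.97 in buffer, and AT4G11210 averaged 6.29 ± 0.46 in ATP and 6.45 ± 0.94 in buffer (SD, n = 3 each). The changes were 0.26 (95% interval -0.54 to 1.05) and -0.17 (95% interval -0.99 to 0.66). The WT value of AT4G11190, -1.03 (SE 0.36), lies outside the interval of this gene in dorn1-1. That of AT4G11210, -0.85 (SE 0.38), lies inside its own. These intervals leave out the error of the WT values, so they do not test a difference between the responses. The shoot marker mean was 0.52 higher in dorn1-1 given ATP than in dorn1-1 given buffer (exact permutation p = 0.6). With that mean as a covariate the changes in dorn1-1 were 0.52 for AT4G11190 and 0.07 for AT4G11210, whose sign turned. AT1G65870 averaged 3.82 ± 0.10 in ATP and 3.62 ± 0.24 in buffer (SD, n = 3 each). By limma 0 of 7 members passed and 0 of 7 had an unadjusted p under 0.05, where 0% and 2.3% of all probe sets did.

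The difference between the responses, dorn1-1 minus WT, was tested directly. It was 1.29 for AT4G11190 (SE 0.51, limma adjusted p = 0.712), whose own changes were 0.26 in dorn1-1 and -1.03 in the WT. It was 0.68 for AT4G11210 (95% interval -0.48 to 1.85) and -0.38 for AT1G65870 (95% interval -0.87 to 0.11). With the shoot marker mean as a covariate it was 0.87 for AT4G11190, 0.32 for AT4G11210 and -0.25 for AT1G65870. No member passed, where 0.00879% of all probe sets did, and AT4G11190 was the 1 member with an unadjusted p under 0.05, against 6.97% of all. The adjusted p of AT4G11190 lay between 0.169 and 0.948 over the other settings tried, and its difference between 0.80 (without dorn1-1 buffer replicate 1) and 1.77 (without dorn1-1 buffer replicate 2). A genotype difference in the ATP response of the pair was therefore not established by limma at this number of arrays.

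The pair was also followed array by array. AT4G11190 and AT4G11210 correlated with r = 0.90 over the 12 arrays, and with r = 0.83 after each group mean was removed, the highest of the 21 pairs of members over the arrays in both cases. They are neighbours with 0 protein-coding genes between them in the RefSeq annotation (TAIR10.1), and another family gene, AT4G11180, lies directly beside AT4G11190 but was not analysed here. Related genes can share probe sequence, and the share of cross-hybridisation was not tested. All 7 probe sets carry the plain suffix that the array maker gives to sets meant for a single transcript. AT1G65870 and AT1G58170 ran opposite to each other within groups (r = -0.83). The 12 arrays share 4 group means and differ in the shoot marker mean, so these values describe the arrays and carry no test.

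Against the shoot marker mean, AT4G11190 had r = -0.69 (Spearman rho = -0.52) and AT4G11210 r = -0.56 (rho = -0.35) over the 12 arrays. Within groups r was -0.77 and -0.65. Without the 2 arrays farthest from the median, dorn1-1 buffer replicate 2 and WT ATP replicate 1, r was -0.44 and -0.17. Those arrays have the lowest and highest shoot marker means. Leaving them out narrows the range, which can lower r by itself, so the drop does not show how much rests on them. AT1G55210 had the most negative r of the 7 members over the 12 arrays (r = -0.84, rho = -0.86, and -0.75 without those arrays), and AT1G65870 a positive one (r = 0.72, rho = 0.83, and 0.90 without them). AT1G55210 was thus lower on arrays with a higher shoot marker mean, and AT1G65870 higher, also within groups (r = -0.82 and 0.62). Within groups AT2G21100, AT3G13650 and AT1G58170 had r = -0.85, -0.84 and -0.76 with the shoot marker mean, against -0.67, -0.17 and -0.43 over the 12 arrays.

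**Figure D3:**
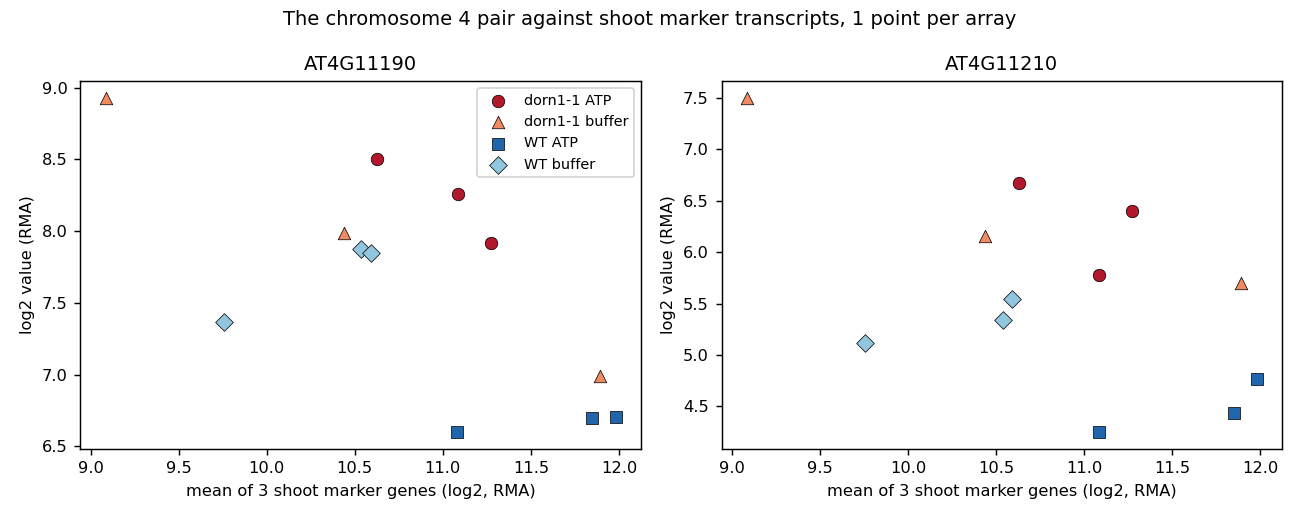
Log2 value (y axis) of AT4G11190 and AT4G11210 against the mean of 3 shoot marker genes (x axis, log2), 1 point per array, coloured by group. The dorn1-1 ATP arrays, at shoot marker means of 10.63 to 11.27, lie above the WT ATP arrays, at 11.08 to 11.98, in both panels, and dorn1-1 buffer replicate 2 stands at the upper left.

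Genes whose pattern over the 12 arrays was most like that of the pair were named by a fixed rule, the 3 highest Pearson r among 13279 other loci. For AT4G11210 these were AT3G43960 (r = 0.99), AT5G45590 (r = 0.98) and AT4G20460 (r = 0.98), which were 1.53, 0.78 and 0.86 higher in dorn1-1 given ATP than in WT given ATP on the log2 scale (limma adjusted p = 0.0126, 0.0136 and 0.0346). For AT4G11190 they were AT1G76550, AT3G48940 and AT1G72480 (r = 0.96 each), with differences of 0.93, 1.07 and 0.58 (limma adjusted p = 0.0146, 0.0643 and 0.0253). For AT1G65870 they were AT5G02440 (r = 0.92), AT3G20270 (r = 0.92) and SETH3 (AT3G54690, r = 0.90), and none of these passed between the genotypes in ATP. Of the 6 loci most like the pair 5 thus also passed as higher in the mutant in ATP, against 4.68% of all probe sets. The arrays of that contrast entered the likeness itself, and the pair passed in it. The count was therefore largely fixed in advance and carries no test. Over the 12 arrays the 6 loci had r of -0.69 to -0.60 with the shoot marker mean, and the 3 loci most like AT1G65870 had 0.68 to 0.87.

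The stretch of chromosome 4 around the pair was read in the same contrast. Of the 40 protein-coding genes that flank it, 20 on each side, 18 were measured. In dorn1-1 against the WT in ATP 1 of the 18 passed, AT4G11120, with a log2 difference of 0.80 (limma adjusted p = 0.0190), against 6.68% of all probe sets, and in buffer 0 did, against 0.0659%. The 18 ranged from -0.78 to 0.80, below both members of the pair.

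**Figure D4:**
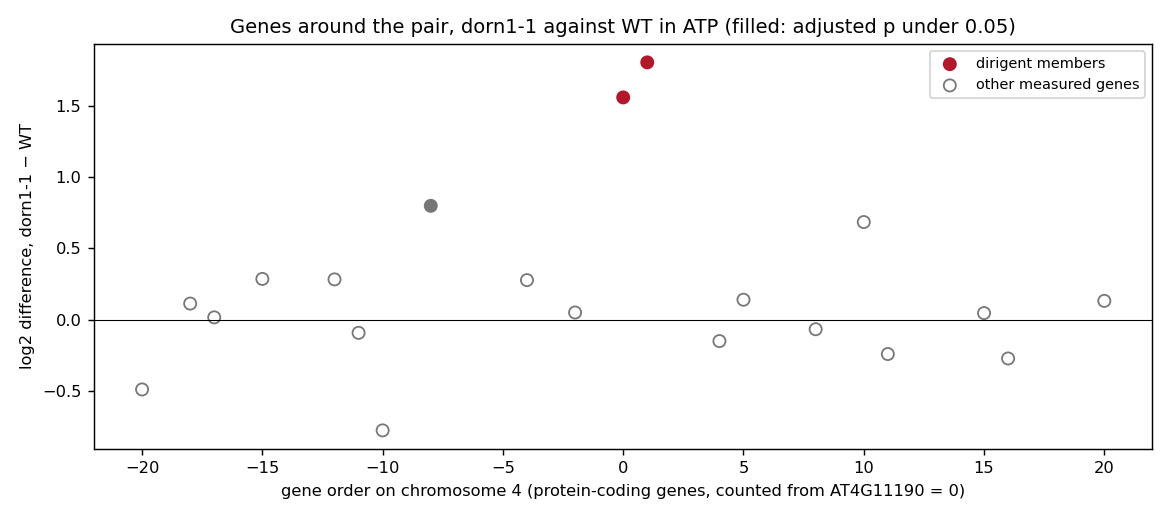
Log2 difference between dorn1-1 and WT in ATP (y axis) for measured genes around the pair, by gene order on chromosome 4 counted from AT4G11190 (x axis); filled points have an adjusted p under 0.05. The pair stands at 1.56 and 1.80, and the 18 other measured genes lie between -0.78 and 0.80.

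Of 16 further loci of the family, 8 were measured. By limma 0 of the 8 passed in any of the 5 contrasts, where 0% to 6.68% of all probe sets did. In ATP 2 had an unadjusted p under 0.05 between the genotypes, both higher in dorn1-1, against 21.7% of all probe sets, and they are named here after their values were seen. The count was 1 of 8 (AT1G22900) both in buffer, against 12.9% of all probe sets, and for the difference in response, against 6.97%, and it was 0 of 8 in dorn1-1, against 2.3%. AT2G39430 had 7.15, 8.00 and 6.94 in dorn1-1 given ATP, against 6.42, 6.23 and 6.30 in WT given ATP, a log2 difference of 1.05 (SE 0.34, limma adjusted p = 0.0906). AT4G13580 had 7.86, 8.40 and 7.55 in dorn1-1, against 7.28, 7.15 and 7.02 in the WT, a difference of 0.79 (SE 0.26, limma adjusted p = 0.103). The groups did not overlap for these 2 of the 8 genes, against 27% of all probe sets. The shoot marker mean was lower by 0.64 in dorn1-1 given ATP, and over the 12 arrays it had r = -0.76 with AT2G39430 and -0.70 with AT4G13580 (within groups -0.74 and -0.67); its part in these differences was not tested.

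In the WT response 3 of these 8 had an unadjusted p under 0.05, against 22.2% of all probe sets. AT1G22900 had the lowest, with a log2 change of 0.49 (SE 0.14, limma adjusted p = 0.101), and AT2G39430 and AT4G13580 had changes of -0.88 and -0.59. The shoot marker mean was 1.34 higher in the same ATP arrays and had r = 0.69 with AT1G22900 over the 12 arrays, and its part in these 3 changes was not tested. Other family genes near members were also measured: AT2G21110, with 1 protein-coding gene between it and AT2G21100, had a log2 difference of 0.00 between the genotypes in ATP, against 0.45 for AT2G21100, and AT3G13660 and AT3G13662, which follow AT3G13650 directly, had 0.10 and 0.31, against -0.34 for AT3G13650. These neighbours were dim. Their means in dorn1-1 and WT given ATP were 2.78 and 2.78 (AT2G21110), 3.77 and 3.67 (AT3G13660) and 3.27 and 2.95 (AT3G13662). RMA compresses differences at such levels, so these values do not show that the neighbours were unchanged.

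**Figure D5:**
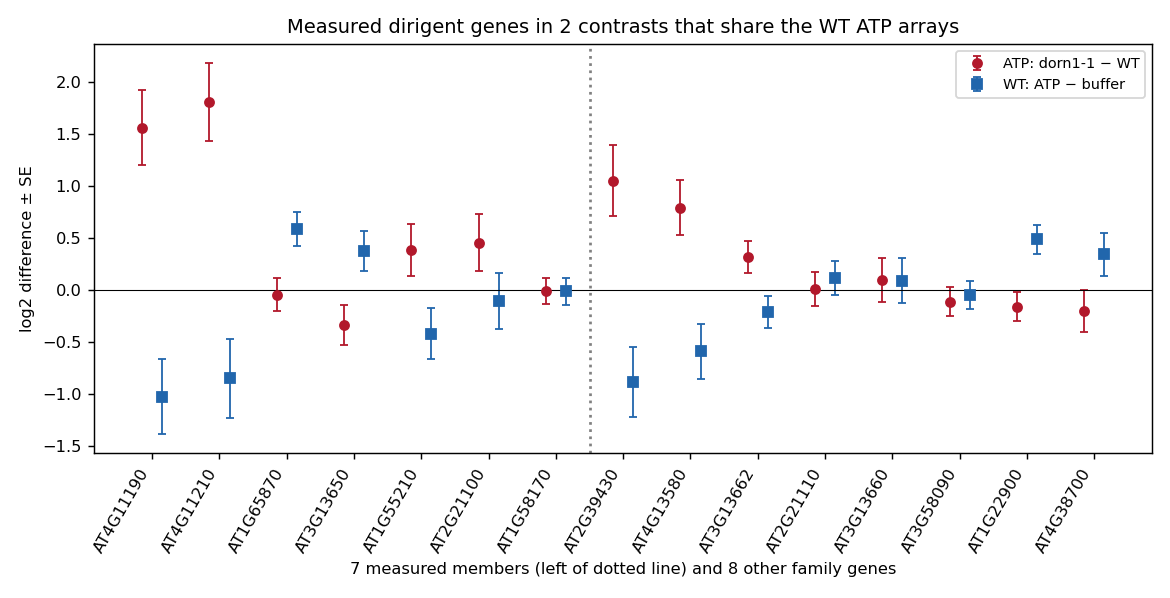
Log2 difference ± SE (y axis) of 15 measured dirigent loci (x axis), for dorn1-1 minus WT in ATP (red circles) and for ATP minus buffer in the WT (blue squares); both use the same WT ATP arrays. AT4G11190, AT4G11210, AT2G39430 and AT4G13580 have red values of 1.56, 1.80, 1.05 and 0.79, and only the first 2 of these passed.

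Genes that make, couple or deposit the substrates of dirigent proteins were sparsely measured. For monolignol synthesis 2 of 19 listed genes had a named probe set, for steps after coupling 1 of 3, for laccases and wall peroxidases 4 of 13, for the Casparian strip 2 of 9, and for MYB regulators of lignin 0 of 8. By limma 0 of these 9 measured genes passed in any of the 5 contrasts, where 0% to 6.68% of all probe sets did. In the WT response 4 of the 9 had an unadjusted p under 0.05, all with lower values in ATP, against 22.2% of all probe sets. UGT71C1, a glycosyltransferase that acts on lignans, had a log2 change of -0.70 (SE 0.23, limma adjusted p = 0.128). The peroxidase list's AT5G66390 had -0.64 and the Casparian strip list's AT1G61590 had -0.77, with limma adjusted p = 0.202 and 0.108. GSO1, a receptor kinase needed for a continuous Casparian strip, had -0.52. CCR2, a cinnamoyl-CoA reductase of monolignol synthesis, had a log2 change of 0.59 with overlapping groups (limma adjusted p = 0.232). The shoot marker mean was 1.34 higher in the same ATP arrays, and its part in these values was not tested. Between the genotypes 4 of the 9 had an unadjusted p under 0.05 in ATP (GSO1 and AT5G66390 with higher values in dorn1-1, CCR2 and AT2G41480 with lower), against 21.7% of all probe sets, and 1 of the 9, AT2G41480 of the peroxidase list, did so in buffer, against 12.9%. The shoot marker mean was lower by 0.64 in dorn1-1 given ATP, and its part in the ATP values was not tested. For AT2G41480 the log2 differences were -0.79 in ATP and -1.09 in buffer, with limma adjusted p = 0.0714 and 0.116. The count was 0 of 9 in dorn1-1, against 2.3% of all probe sets, and for the difference in response, against 6.97%.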

How the data were processed

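Biotin-labelled root RNA was read on one-colour arrays. Per the submitters' processing notes, the authors made the deposited log2 values with RMA (affy); tool versions are not given in the sources. RMA equalises arrays, which would hide a shift common to most transcripts. Array medians were 6.07 to 6.17, and precision is limited by having 3 arrays a group. After 64 control probe sets were left out, 22746 were fitted with limma 3.58.1 (R 4.3.3), with 1 mean per group over 12 arrays and Benjamini-Hochberg adjustment over all probe sets in each of 5 contrasts. Intervals are 95% from limma. The fit was tested on simulated data. Figures used matplotlib 3.10.9 (Python 3.11.15). Names came from 13513 probe sets with 1 gene in the platform annotation, 13436 matched to RefSeq TAIR10.1 genes; 503 list several, and 8730 tested ones are unlisted and unnamed. Members, lists and markers were chosen with earlier results of these data known. All members are named. From each list, genes that passed are named, or otherwise the gene with the lowest p in the WT response; others named are said to be so or complete a count. No background correction could be varied. Scaling, filter, moderation, weights, replicate block, groups in the fit, shoot covariate and omitted arrays were.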

Additional observations from a re-analysis of the deposited data

How the results depend on the processing

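In the genotype comparison in ATP, 2 members passed, and the count was also 2 with median centring, quantile or cyclic loess scaling, the filter at the 40th percentile of mean level, trend and robust moderation, array weights, a replicate block and only the 2 groups compared; it was 3 with the shoot covariate, and 0 to 2 when each of the 12 arrays was left out. It was 0 without WT ATP replicates 2 or 3 or dorn1-1 ATP replicate 2. Of the probe sets tested in each fit, 6.33% passed with the shoot covariate, 12.2% with the filter and 13.5% with array weights. The share was 2.55% and 1.2% without WT ATP replicates 2 and 3, and 1.56% without dorn1-1 ATP replicate 2. In the WT response the count of 0 was 4 with array weights, 3 with only the 2 groups compared, and 0 to 2 with an array left out, 2 without dorn1-1 buffer replicate 1. Of all probe sets, 27.3% passed with array weights, 11% with only the 2 groups and 10.2% without dorn1-1 buffer replicate 1. In buffer the count of 0 was 1 of 7 with array weights, against 11.3% of all probe sets. It stayed at 0 under every setting tried for the dorn1-1 response and the difference in response. Of the members' 35 log2 changes, the 7 with an unadjusted p under 0.05 kept their sign in every fit that tested them. Among the rest the sign turned for 8 with the shoot covariate (AT1G55210 in the WT response, -0.42, became 0.06), 5 with array weights, 1 each with median centring and cyclic loess, 0 with the other settings and 14 in at least 1 fit with an array left out. Same-numbered arrays deviated together in 8 of 18 pairs (r above 0.1), and r over the 18 had a median of 0.03 and a range of -0.28 to 0.56. Differently numbered pairs from different groups had r of -0.58 to 0.44. Of 12 arrays, 5 correlated best with their own number. With so few arrays these values cannot settle whether the numbers mark a shared batch. The replicate block changed no member's call. Over all probe sets it gave 447 calls in the WT response against 151, and 24 against 15 in buffer. Array weights called 3067 probe sets between the genotypes in ATP and 6203 in the WT response, against 1519 and 151, and the fit of the WT groups alone called 2506 in the WT response. AT1G65870 and AT1G58170 were not tested under the filter, which left 25 of the members' 35 log2 changes.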
